A study of Mus musculus with 2 samples.

Results

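The 32 genes described here make and handle cholesterol. They were chosen by symbol from 55536 annotated genes, through a rule that uses no measured value. The list was written with earlier results of these data known. They comprise 17 enzymes of the synthesis pathway, 5 genes of the SREBP control circuit, 5 genes of the liver X receptor (LXR) and efflux arm, and 5 genes of sterol transport and modification. Their RNA was sequenced, after removal of ribosomal RNA, from the nucleoplasmic fraction of macrophages grown from the bone marrow of C57BL/6J mice. Both libraries came from cells stimulated for 90 min with lipid A at 100 ng/ml. Lipid A is the membrane anchor of bacterial lipopolysaccharide, sensed by TLR4. The 2 libraries are biological replicates tied to 1 donor entry, made from 1 µg of RNA (replicate 1) and 500 ng (replicate 2). With no unstimulated library among them, the levels below do not measure a response to lipid A.

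Cells build cholesterol from acetyl-CoA through mevalonate, squalene and lanosterol. When sterols in the endoplasmic reticulum are scarce, Scap escorts SREBP proteins to the Golgi, where cleavage frees them to switch on the synthesis enzymes; Insig proteins hold the complex back when sterols are plentiful. When sterols accumulate, oxysterols activate LXRs, which raise the transporters that export cholesterol. Macrophages take in much cholesterol from debris and lipoproteins, and export and storage are prominent in them.

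Fixed motifs were searched in the 250 bases before each RefSeq start site, on both strands. Windows were in the RefSeq table (GRCm38.p6) for 26 of the 32 genes. Sqle, Fdps, Fdft1, Stard4, Npc1 and Abcg1 were missing from it. One of them was CCAAT, the box bound by NF-Y, a factor known to act beside SREBP at sterol gene promoters. It lay in a window of 14 of 14 synthesis enzymes and of 7 of 12 other genes of the set, against 39.3% of the 6887 expressed protein-coding genes with a window. Counted by window, it was in 14 of 17 enzyme windows and 8 of 18 windows of the other genes, against 33.8% of all 32851 RefSeq promoters. Pmvk and Dhcr7 have several start sites and held it in 1 window each; that of Pmvk lies 4577 bases from the start of its leading transcript, and its nearer window held none. The 4 enzyme promoters below are shown because they carry 2 or more such boxes, and the Abca1 promoter because it has none. Capitals mark CCAAT, which reads ATTGG on the other strand. In Hmgcs1 they also mark the match to a sterol regulatory element, and in Abca1 they mark GC boxes (GGGCGG).
Hmgcs1: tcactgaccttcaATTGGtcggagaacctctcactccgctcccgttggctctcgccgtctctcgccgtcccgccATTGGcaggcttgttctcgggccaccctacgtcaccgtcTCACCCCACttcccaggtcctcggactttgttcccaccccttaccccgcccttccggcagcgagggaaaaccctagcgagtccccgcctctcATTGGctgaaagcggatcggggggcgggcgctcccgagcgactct
Mvk: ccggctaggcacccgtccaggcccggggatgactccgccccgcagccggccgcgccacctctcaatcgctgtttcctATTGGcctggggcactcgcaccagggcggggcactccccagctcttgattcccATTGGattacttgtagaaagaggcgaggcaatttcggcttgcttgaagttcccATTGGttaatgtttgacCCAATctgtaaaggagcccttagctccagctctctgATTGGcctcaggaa
Nsdhl: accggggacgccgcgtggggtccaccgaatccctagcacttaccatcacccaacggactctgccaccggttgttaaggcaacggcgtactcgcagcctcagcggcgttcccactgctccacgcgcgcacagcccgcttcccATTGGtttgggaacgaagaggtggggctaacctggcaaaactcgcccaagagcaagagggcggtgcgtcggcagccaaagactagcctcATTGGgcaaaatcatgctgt
Ebp: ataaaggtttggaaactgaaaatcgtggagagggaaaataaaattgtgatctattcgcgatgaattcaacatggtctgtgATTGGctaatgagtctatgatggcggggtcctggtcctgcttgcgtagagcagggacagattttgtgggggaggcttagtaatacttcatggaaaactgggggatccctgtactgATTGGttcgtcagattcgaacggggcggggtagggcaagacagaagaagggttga
Abca1: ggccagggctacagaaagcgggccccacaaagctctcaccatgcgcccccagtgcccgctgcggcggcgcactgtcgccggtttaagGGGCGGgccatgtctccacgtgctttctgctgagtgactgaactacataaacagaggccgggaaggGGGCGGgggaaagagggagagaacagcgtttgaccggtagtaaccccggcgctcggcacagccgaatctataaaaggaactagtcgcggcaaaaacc

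The windows lie at chr13:119690101-119690350 (Hmgcs1, plus strand), chr5:114444019-114444268 (Mvk, plus), chrX:72918271-72918520 (Nsdhl, plus), chrX:8193513-8193762 (Ebp, minus) and chr4:53159896-53160145 (Abca1, minus), each read 5′ to 3′ along its gene. Mvk held 5 CCAAT boxes, and Hmgcs1, Msmo1 and Hsd17b7 held 3 each. Several boxes were not limited to enzymes: Mylip and 1 window of Insig2 also held 3, and Npc2 held 2. Outside the enzymes, Srebf1, Srebf2, Insig1, Insig2, Mylip, Npc2 and Soat1 had at least 1, while Scap, Nr1h3, Nr1h2, Abca1 and Ch25h had none. The windows with a box lay 1977 bases or more from the start of the leading transcript in Srebf1. In Insig2, Npc2 and Soat1 that distance was 4565, 10572 and 7524 bases. The leading transcript of Npc2 is Npc2-203, a retained-intron transcript. Other transcripts of Npc2 and Soat1 start close to the RefSeq sites of these windows (84773112 and 156474328). The coding Npc2-201 starts at 84773152 and held 38.0% and 39.8% of its gene's TPM. Soat1-207 starts at 156474331 and held 12.7% and 17.2%. The windows nearest the leading start of Srebf1 and Insig2 held none. The sterol regulatory element was searched as TCACNCCAC, the site that SREBP binds in its classical form. Among the members it was found in Hmgcs1 alone, at position -137 from the start and between a pair of CCAAT boxes, and it was in 1.05% of all promoters. The GC box GGGCGG, which Sp1 binds, was in 13 of 14 enzymes and in 8 of 12 other members, against 65.5% of expressed protein-coding genes. The exact consensus of the direct repeat that LXR binds, AGGTCA and again AGGTCA after 4 bases, was in no member's window and in 0.0152% of all promoters. Repeats that differ from it in any letter were not searched, so its absence does not show that a promoter lacks an LXR site. The core of interferon-stimulated elements, GAAA and again GAAA after 2 bases, was in Ebp and in 2.98% of all promoters. The loose NF-kB consensus, GGG and CC with 5 bases between them, which can overlap a GC box, was in 14 of 14 enzymes and 11 of 12 other members, against 67.5% of expressed protein-coding genes. A match describes the letters in these windows and no binding, and a missing match covers only the exact letters searched.

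**Figure D1:**
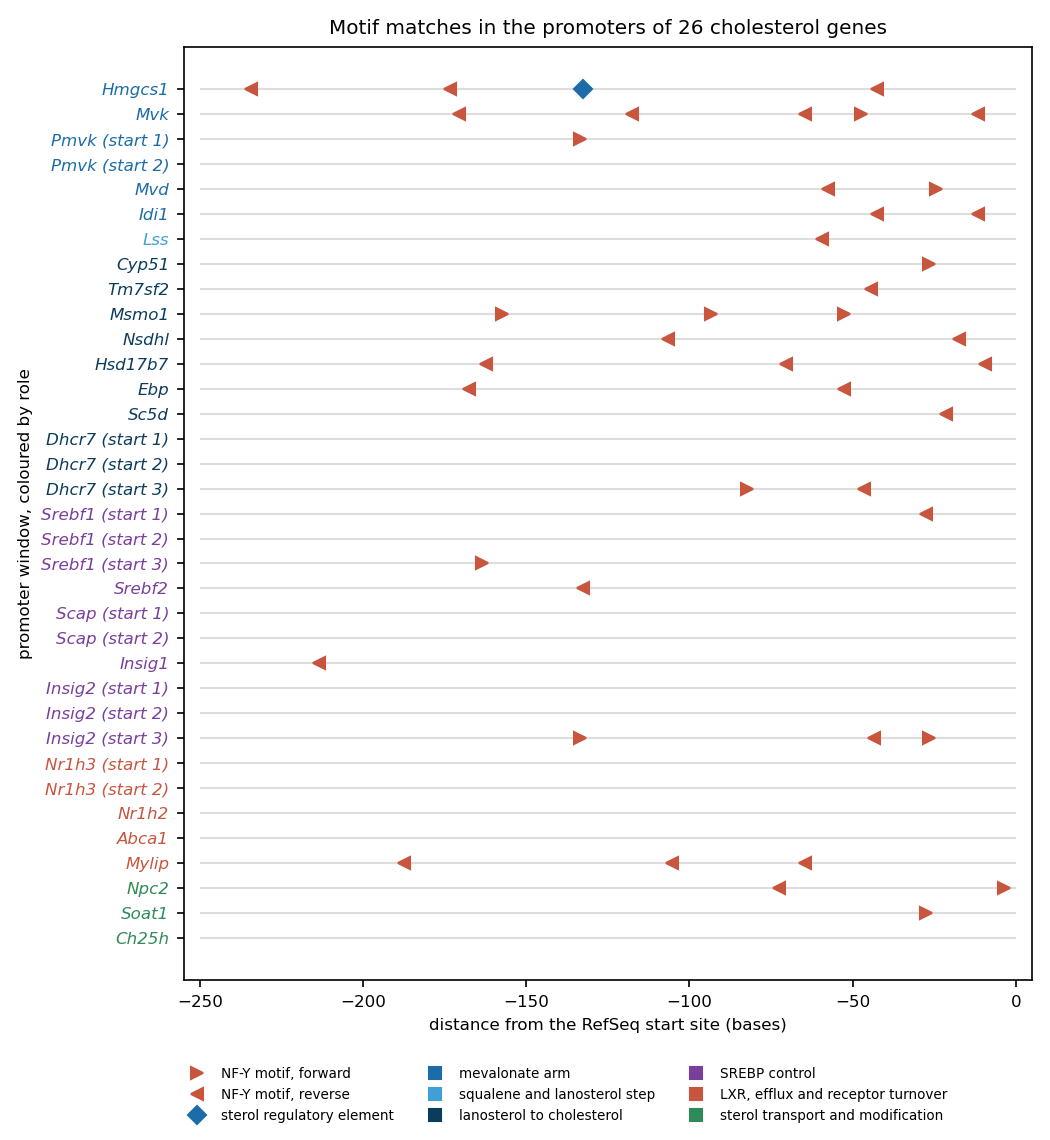
Positions of CCAAT boxes (triangles, pointing by strand) and of the sterol regulatory element (diamond) in the 250 bases before each RefSeq start site, for the 26 genes with a window. Genes with several start sites have 1 line per site. Each of the 14 enzymes has a triangle on at least 1 line, and Scap, Nr1h3, Nr1h2, Abca1 and Ch25h have none.

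Library depth was 22669533 estimated counts in replicate 1 and 14939143 in replicate 2. Features with an effective length under 200 bases took 73.9% and 56.99% of all TPM (transcript abundance relative to the library's total, corrected for length), so longer genes read lower in replicate 1. Protein-coding genes that reached 1 TPM in each library are called expressed here. The median TPM of these 8559 genes was 6.62 in replicate 1 and 8.67 in replicate 2, and each library's levels are read against its own median. The macrophage label held: 8 of 8 macrophage markers reached 10 TPM in both, with Lyz2 at 916 and 1103 TPM. None of 29 markers of other cell types reached 10 TPM, 2 reached 1 TPM in both (S100a9 and Kdr), 9 were at 0 in both, and their sum was 6.59 and 9.38 TPM. In the second quantification 4 of the 29 reached 1 TPM in both libraries, their sum was 15.1 and 39.3 TPM, and Cd3d (3.01 and 13.1 TPM; 0 in the first) and Pecam1 (3.53 and 13.4 TPM) passed 10 TPM in replicate 2. These are bulk libraries, in which fewer cells with an RNA and less of it per cell cannot be told apart.

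In both libraries, 29 of the 32 genes reached 1 TPM, against 38.9% of all 22015 protein-coding genes. The exceptions were Mvk, Mvd and Hsd17b7, all enzymes of synthesis. At the other end, Abca1 and Npc2 exceeded 100 TPM in both libraries. Beside the expressed genes, most synthesis enzymes lay low and most regulators, transporters and storage genes lay high. The enzymes had a median of 3.14 TPM in replicate 1 and 2.67 TPM in replicate 2, which was 0.474 and 0.308 times the median of expressed genes. The 15 other members had medians of 16.01 and 21.9 TPM, or 2.42 and 2.53 times that median. Below the median of expressed genes in both libraries were 15 of the 17 enzymes, against 47.0% of the expressed genes themselves, while 12 of the 15 other members were above it in both. Those 15 enzymes include Mvk, Mvd and Hsd17b7, which are not among the expressed genes, so the 2 shares rest on unlike filters. By the second quantification, 14 of the 17 enzymes were below and 13 of the 15 other members above. Where each group lies depends on the genes set beside it, while changing those genes moves the groups together. Relative to all protein-coding genes with none filtered, the enzymes' log2 level was 3.16 in place of -1.36. The SREBP control genes were then at 5.65 in place of 1.13, and the LXR group at 5.82 in place of 1.29. Relative to genes at 5 TPM or more, the enzymes were at -2.45, the SREBP control genes at 0.033 and the LXR group at 0.20. The enzymes were below both groups each time, an order that a shift common to all groups cannot change. With 1 group and no control, these are levels beside other genes of the same libraries, without a test.

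**Figure D2:**
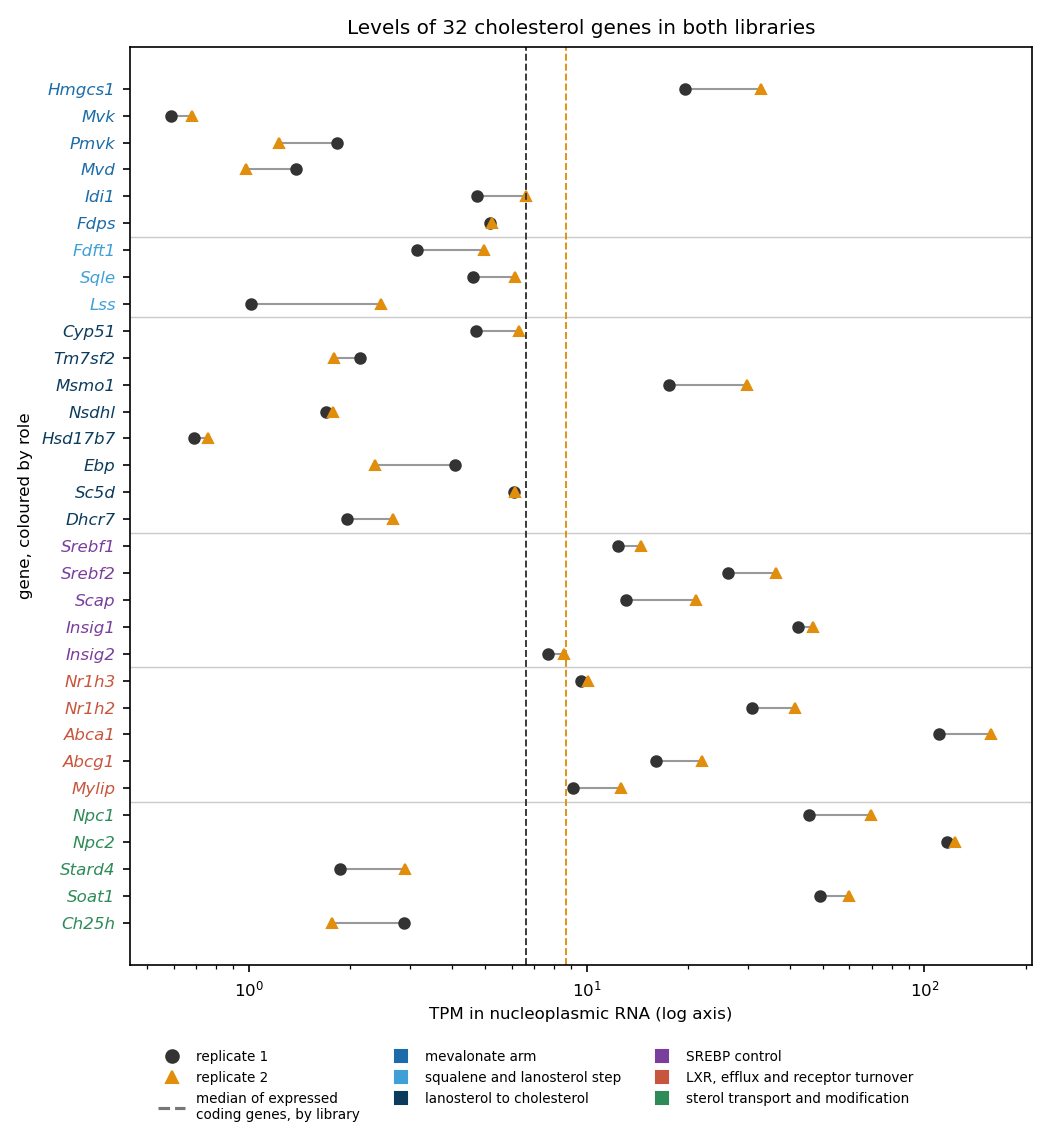
Level of each of the 32 genes in replicate 1 (circle) and replicate 2 (triangle), in TPM on a log axis, grouped and coloured by role. Dashed lines mark the median of expressed protein-coding genes in each library (6.62 and 8.67 TPM). Among the enzymes, both points of Hmgcs1 and of Msmo1 lie right of the line of their own library, and those of the other 15 lie left of it.

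The mevalonate arm was uneven from step to step. Hmgcs1, which condenses acetyl-CoA with acetoacetyl-CoA to HMG-CoA, stood at 19.6 TPM in replicate 1 and 32.9 TPM in replicate 2 (chromosome 13, 119690379 to 119708260, mm10). That was 2.96 and 3.79 times the median of expressed genes in its library, from 1800 and 1481 counts. The kinase that follows on mevalonate was at the opposite end: Mvk had 0.590 and 0.680 TPM, from 31 and 22 counts (chromosome 5, 114444269 to 114460591). Hmgcs1 thus exceeded Mvk 33.2-fold in replicate 1 and 48.4-fold in replicate 2, per length, and 29.8-fold and 25.9-fold in the second quantification. Pmvk, which adds the second phosphate, had 1.83 and 1.23 TPM. Mvd, which decarboxylates the product to isopentenyl diphosphate, had 1.38 and 0.980 TPM. The 2 enzymes that close the arm were closer to the middle. Idi1, the isomerase of that unit, had 4.74 and 6.64 TPM, and Fdps, which joins the units to farnesyl diphosphate, had 5.18 and 5.26 TPM. So 5 of the 6 genes of the arm were below the median of expressed genes in both libraries.

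The squalene and lanosterol steps were low in all 3 genes. Fdft1, squalene synthase, had 3.14 and 4.98 TPM. Its exons share 774 bases with Ctsb on the opposite strand, a cathepsin gene at 1017 and 1559 TPM, and the strand setting of the counting is not given, so the level of Fdft1 is uncertain. Sqle, the epoxidase known as a rate-limiting step of the later pathway, had 4.63 and 6.13 TPM. Lss, which closes the rings of lanosterol, had 1.02 and 2.46 TPM from 116 estimated counts in each library. Its deposited interval bounds, 0.945 to 2.85 TPM in replicate 1 and 2.04 to 5.64 TPM in replicate 2, overlap.

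Of the 8 genes that turn lanosterol into cholesterol, Msmo1 stood apart. This sterol methyl oxidase, which starts removal of the C4 methyl groups, had 17.5 TPM in replicate 1 and 29.9 TPM in replicate 2 (chromosome 8, 64718139 to 64733792), or 2.65 and 3.45 times the median of expressed genes. Its partners in the same demethylation were far lower. Nsdhl, the dehydrogenase, had 1.70 and 1.78 TPM, and Hsd17b7, the ketoreductase, had 0.690 and 0.760 TPM. Msmo1 exceeded Nsdhl 10.3-fold and 16.8-fold. Cyp51, the lanosterol demethylase, had 4.70 and 6.31 TPM. Tm7sf2, a C14 sterol reductase, had 2.14 and 1.79 TPM, and it shares 532 exon bases with Vps51 on the same strand. Ebp, the sterol isomerase, had 4.08 and 2.37 TPM. Sc5d, the desaturase, had 6.12 and 6.14 TPM, and Dhcr7, which makes the final reduction to cholesterol in one branch, had 1.95 and 2.67 TPM.

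Hmgcs1 and Msmo1 together gave 45.8% of the enzymes' TPM in replicate 1 and 55.6% in replicate 2. The remaining 15 enzymes spanned 0.590 to 6.12 TPM in replicate 1 and 0.680 to 6.64 TPM in replicate 2. In the second quantification, that pair of genes gave 47.0% and 48.6%. Other annotated genes overlap some of these enzymes: Cyp51 shares 166 exon bases with Akap9 on the opposite strand (12.0 and 17.2 TPM), and Hmgcs1 shares 557 with the antisense gene Gm48342 (2.88 and 7.24 TPM). Fdps shares 1124 exon bases with Gm43738 on the same strand, which is listed at 0 in both libraries.

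The genes that control SREBP were at or above the level of the typical expressed gene. Their median was 13.1 TPM in replicate 1 and 21.1 TPM in replicate 2. Insig1, the retention factor that is itself an SREBP target, was highest at 42.3 and 46.9 TPM (chromosome 5, 28071363 to 28078662), with 2805 and 1384 counts. Insig2, its relative that does not depend on SREBP in the same way, had 7.68 and 8.59 TPM. Insig1 exceeded Insig2 5.51-fold in replicate 1 and 5.46-fold in replicate 2. That ratio was 2.41 and 1.80 in the second quantification, which put Insig2 at 11.6 and 16.5 TPM. Srebf2, whose protein is the main activator of the cholesterol enzymes, had 26.2 and 36.4 TPM (chromosome 15, 82147181 to 82205379). Srebf1, which favours fatty acid genes, had 12.4 and 14.5 TPM. Srebf2 was above Srebf1 by 2.12-fold and 2.51-fold, and by 1.52-fold and 1.62-fold in the second quantification. Scap, the escort, had 13.1 and 21.1 TPM. Apart from Insig2, which stood at 0.991 times the median of replicate 2, these genes were above the median in both libraries.

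The LXR and efflux arm was led by Abca1. This transporter, which loads cholesterol onto lipid-poor apolipoproteins, had 111 TPM in replicate 1 and 157 TPM in replicate 2 (chromosome 4, 53030787 to 53159895, minus strand). Its 38189 and 27286 counts made it the deepest measured of the 32 genes, and it was 16.7 and 18.2 times the median of expressed genes. Abcg1, the partner transporter that exports to mature high-density lipoprotein, had 16.01 and 21.9 TPM (chromosome 17, 31057675 to 31117988). Abca1 exceeded Abcg1 6.90-fold and 7.19-fold, and 4.65-fold and 4.37-fold in the second quantification. Of the receptors, Nr1h2 (LXR beta) had 30.9 and 41.4 TPM, and Nr1h3 (LXR alpha) had 9.66 and 10.1 TPM. The excess of Nr1h2 was 3.20-fold in replicate 1 and 4.11-fold in replicate 2. Mylip, an LXR-induced ubiquitin ligase that sends lipoprotein receptors to degradation, had 9.13 and 12.7 TPM. All 5 genes were above the median of expressed genes in both libraries.

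Sterol transport and modification split into 3 high and 2 low genes. Npc2, the soluble lysosomal protein that hands cholesterol on to the membrane protein Npc1, had 117 and 123 TPM (chromosome 12, 84754562 to 84773152). Npc1 had 45.6 and 69.6 TPM, and 511 of its exon bases are shared with Rmc1 on the opposite strand (10.1 and 13.4 TPM). Soat1, which esterifies cholesterol for storage in lipid droplets, had 49.2 and 59.7 TPM (chromosome 1, 156424525 to 156474331). The low pair was Stard4, a cytosolic sterol carrier, at 1.86 and 2.90 TPM, and Ch25h at 2.88 and 1.77 TPM. Ch25h makes 25-hydroxycholesterol and is known as an interferon-inducible gene. Soat1 also acts on cholesterol, and it exceeded Ch25h 17.1-fold and 33.7-fold. Stard4 was placed higher by the second quantification, at 4.27 and 8.39 TPM.

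**Figure D3:**
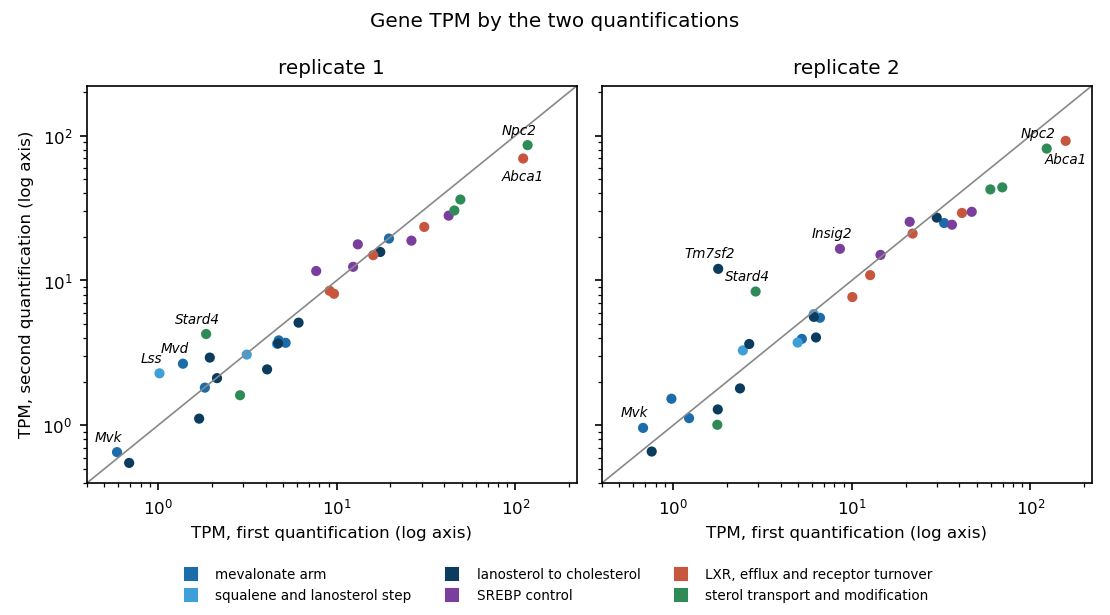
TPM of the 32 genes by the first quantification (horizontal) and the second (vertical), both on log axes, with 1 panel per replicate and the diagonal marking equal values. Most points lie near the diagonal, and the highest genes lie somewhat below it. In replicate 2, Tm7sf2 (1.79 against 12.0 TPM) and Stard4 (2.90 against 8.39 TPM) lie well above it.

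How far these levels repeat was read from the ratio of replicate 2 over replicate 1 in TMM-scaled counts. The median log2 ratio of the 32 genes was -0.0049, with 16 above and 16 below 0, beside a median of -0.03 over all expressed protein-coding genes. None of the 32 was past 1.5-fold higher in replicate 2, against 2.21% of expressed genes. Past 1.5-fold lower were 4, against 8.66%. They were Ch25h (log2 ratio -1.10), Pmvk (-1.05), Mvd (-0.90) and Ebp (-0.86). Their counts were among the lowest, at 117 and 36 for Ch25h, 61 and 19 for Pmvk, 74 and 26 for Mvd and 126 and 46 for Ebp. The exact binomial 95% interval of the ratio, which covers counting error only, was -1.71 to -0.58 for Ch25h and -1.94 to -0.35 for Pmvk. Just inside the limit were Fdps at -0.58 (1.498-fold lower), Lss at 0.56 and Sc5d at -0.56 (1.471-fold lower). Sc5d had 645 and 295 counts, and its counting interval was -0.76 to -0.36. Other genes with few counts had ratios near 0, such as Mvk (31 and 22 counts, 0.07) and Hsd17b7 (83 and 58 counts, 0.05). With 1 group of 2 libraries no test was possible.

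Several genes differed by less than 0.1 on the log2 scale. Abca1 had a ratio of 0.08, Abcg1 of 0.0033, Srebf2 of 0.01, Scap of 0.03, Npc1 of 0.08 and Mylip of 0.04. Hmgcs1 (0.29), Msmo1 (0.34) and Soat1 (0.21) were somewhat higher in replicate 2 by TMM-scaled counts. Soat1 changed sign with the measure, to -0.10 by centred TPM and -0.11 by the second quantification. Hmgcs1 was at 0.37 and 0.02 by those measures, and Msmo1 at 0.39 and 0.45. Insig1 was lower in replicate 2 by TMM-scaled counts, at -0.45, as were Nr1h3 (-0.39), Npc2 (-0.28) and Srebf1 (-0.24). Counting intervals lay wholly below 0 for 11 genes and wholly above 0 for 6, so these differences exceeded counting error without a measure of biological spread. Such intervals narrow with depth, and Abca1 was among the 6 at a ratio of 0.08. They were not computed for all expressed genes, so these counts have no background beside them. Over 13515 genes the common biological coefficient of variation was 0.211. Length moved with the ratio: the Spearman correlation between effective length and log2 ratio was 0.512 across the 32 genes and 0.278 across the 8559 expressed genes, which share the same 2 libraries. Ch25h, Pmvk, Mvd and Ebp had effective lengths of 1163, 956, 1540 and 885 bases in replicate 1, against a median of 2348 bases over the 32 genes. The part of length in their ratios was not tested.

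**Figure D4:**
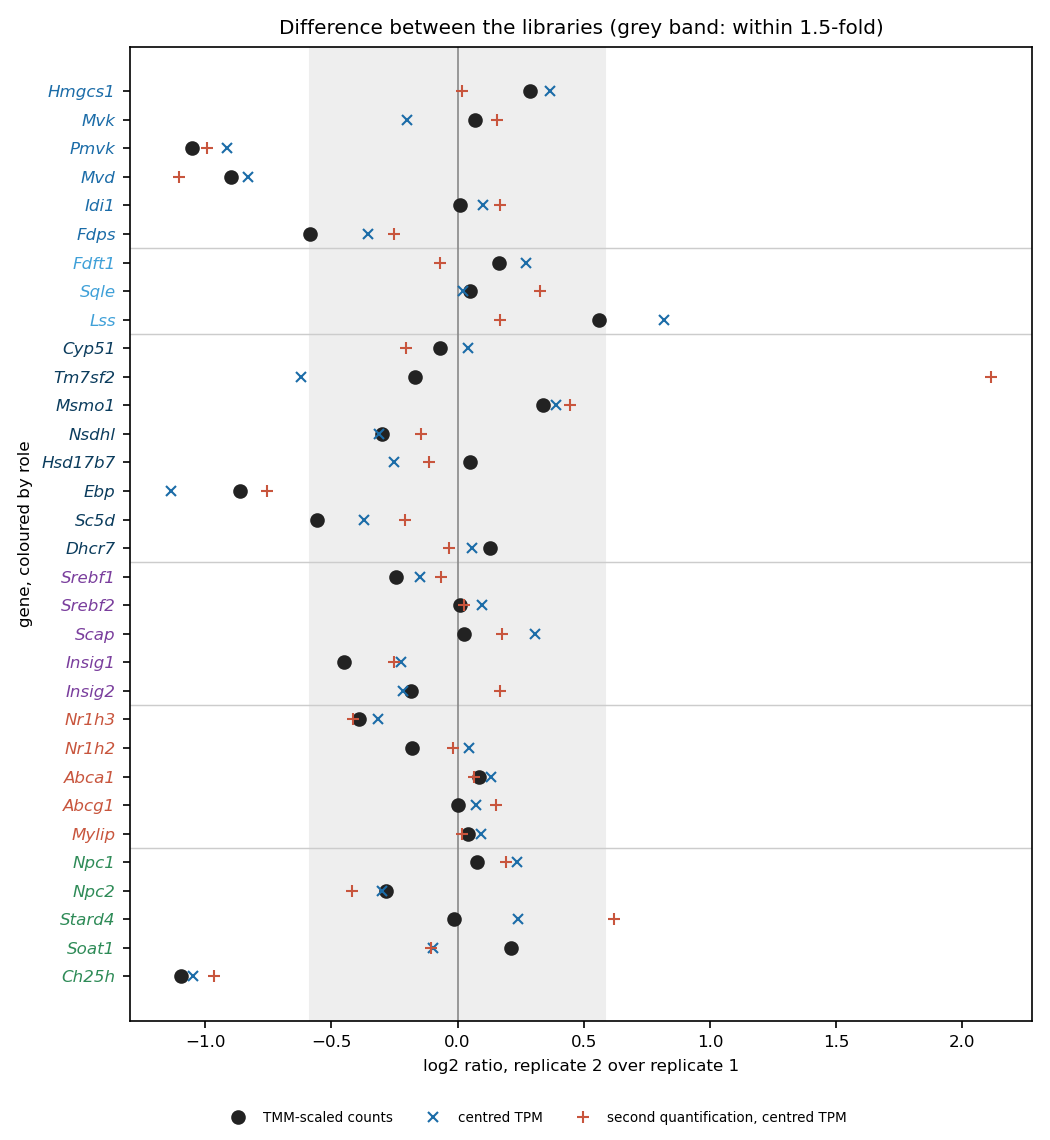
Log2 ratio of replicate 2 over replicate 1 for each of the 32 genes by TMM-scaled counts (circles), centred TPM (crosses) and centred TPM of the second quantification (plus signs). The grey band holds ratios within 1.5-fold. Ch25h, Pmvk, Mvd and Ebp lie left of the band by all 3 measures, and Tm7sf2 lies far right of it by the second quantification alone.

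Nuclear RNA holds transcripts on their way through splicing, so each gene's TPM was split by annotated transcript type. Of the members that reached 1 TPM in both libraries, 23 have a transcript annotated as retained intron. Their median retained-intron share was 24.0% in replicate 1 and 19.7% in replicate 2, against 35.2% and 34.3% over 5584 expressed protein-coding genes with such a transcript. Over 50% in both libraries was 1 of the 23, Npc2, against 21.5% of those 5584 genes. By the second quantification the medians of the members were 36.6% and 35.0%, against 38.8% and 39.4%, so the gap was smaller there. That quantification put 4 of the 23 over 50% in both libraries (Npc2, Lss, Stard4 and Tm7sf2), against 28.5% of those 5584 genes.

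Npc2 gave 62.0% and 60.2% of its TPM to retained-intron transcripts, chiefly Npc2-203, with 47.3 and 55.2 TPM beside 44.5 and 49.1 TPM for the coding Npc2-201. Nr1h3 was at 50.6% and 48.5%, Fdps at 43.6% and 46.3%, Srebf2 at 42.4% and 41.8% and Npc1 at 35.2% and 41.6%. Ebp was at 70.3% in replicate 1 and 45.0% in replicate 2. Msmo1 had a noncoding processed transcript, Msmo1-206, with 5.17 and 9.48 TPM beside 7.16 and 11.6 TPM for the coding Msmo1-201. In Hmgcs1 the retained-intron share was 24.0% and 22.2%, and in Insig1 29.6% and 40.1%.

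At the other end, Abca1 was almost wholly coding, though it has no transcript annotated as retained intron. Abca1-201, a transcript of 10262 bases, held 98.6% of its TPM in replicate 1 and 99.9% in replicate 2. Soat1 gave 3.70% and 1.79% to retained introns, and Abcg1 13.4% and 15.97%. Mylip, Ch25h, Sc5d and Pmvk have only coding transcripts in the annotation, so no other share was possible for them. Srebf1 was split in another way: Srebf1-201 had 841 and 517 counts and Srebf1-203 had 86.7 and 24.9, and its other listed transcripts were mostly short processed ones. By TPM, Srebf1-201 held 47.8% and 50.6% of the gene, and the processed transcripts together held 44.7% and 46.9%. In the second quantification the processed transcripts held 65.4% and 71.0%.

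**Figure D5:**
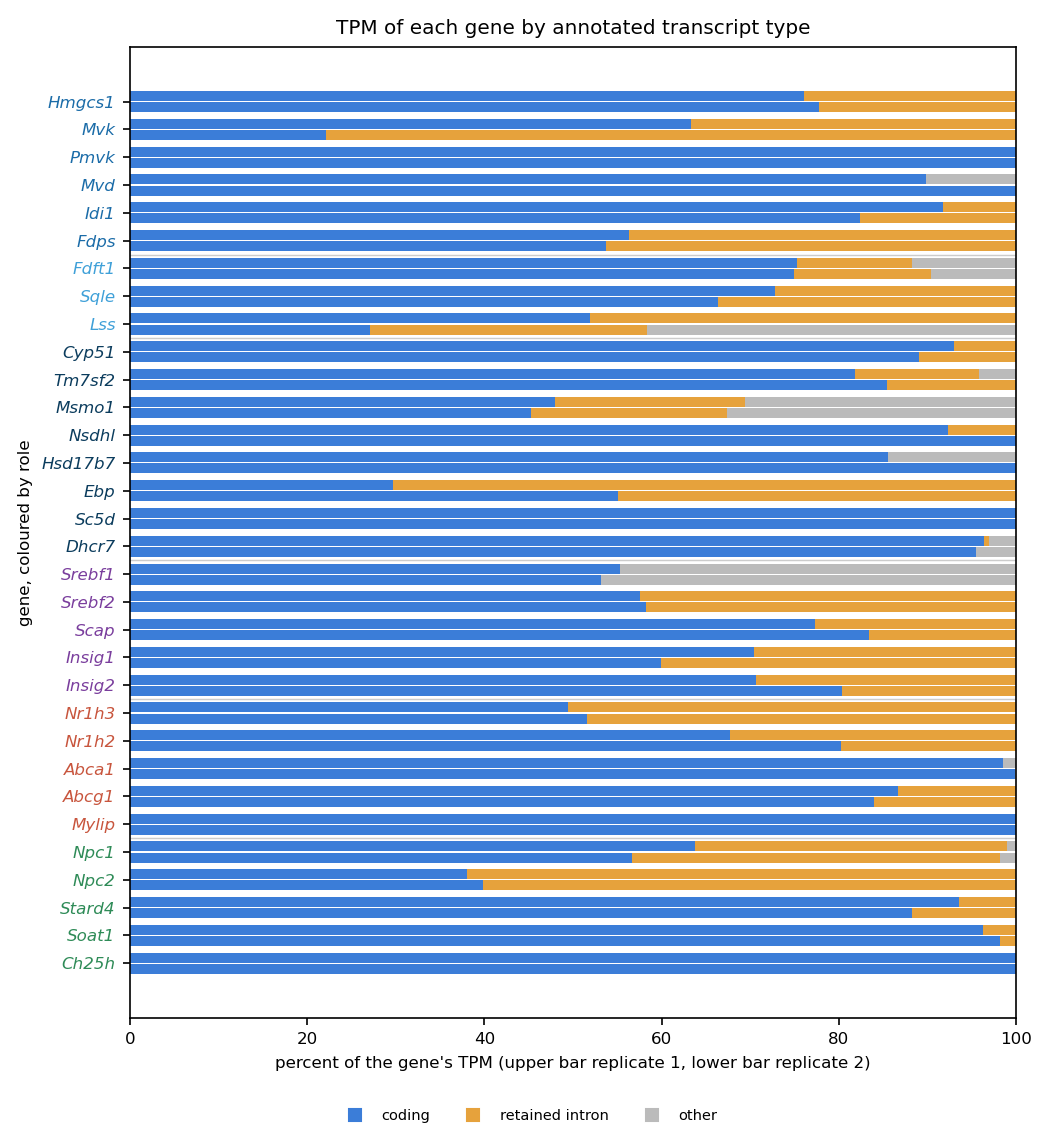
Percent of each gene's TPM in coding transcripts (blue), retained-intron transcripts (orange) and other transcripts (grey), with replicate 1 as the upper bar and replicate 2 as the lower bar of each pair. Abca1, Soat1, Sc5d, Mylip and Ch25h are almost wholly blue, and Npc2 is more orange than blue in both bars. Sc5d, Mylip and Ch25h have only coding transcripts annotated, and Abca1 has none annotated as retained intron.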

How the data were processed

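RNA-seq after ribosomal RNA depletion was measured in 2 libraries of 1 group. Per the file headers and notes, the authors deposited estimated counts and TPM per gene and transcript quantified on a transcriptome alignment (mm10, GENCODE M21), and a second transcript table of estimated counts and TPM made from 10 read files per library. Deposited bounds around each TPM (unit signal) were printed for 1 gene. The sources used here name no aligner, quantifier or strand setting. Estimated counts are read numbers that need not be whole, and were rounded. TPM is relative to all features, small RNAs included.

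The 32 members and the other gene lists were chosen with earlier results of these data known. By the rule for named genes, all members were named, with the 2 highest other genes per group and the highest marker of each cell type that the text uses; 1 gene that the rule names is not reported here. Levels were set beside protein-coding genes that reached 1 TPM in each library. Ratios used edgeR 4.0.16 (R 4.3.3) TMM scaling after filterByExpr, with a prior count of 2, and their computation was tested on simulated data. The common dispersion came from an intercept-only fit. DESeq2 1.42.0 size factors were an alternative. Intervals of ratios were computed with scipy 1.17.1 (Python 3.11.15, numpy 2.4.6, pandas 2.3.3), and plots with matplotlib 3.10.9. No test between conditions was made. Both replicates name 1 donor entry, so their spread may be partly technical. A count of 0 allows up to 3 counts. A gene at about 1 TPM had a median of 72 and 32 counts.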

Additional observations from a re-analysis of the deposited data

How the results depend on the processing

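No paired analysis was possible because the libraries form 1 group. Levels are log2 values relative to expressed protein-coding genes. The enzymes were at -1.36, at -0.99 with the second quantification and at -1.14 with a pseudocount of 1. They were at -2.45 beside genes at 5 TPM or more, and at 3.16 beside all protein-coding genes with none filtered. Of all protein-coding genes, 38.9% reached 1 TPM in both libraries. Leaving out a replicate put the enzymes at -1.66 to -1.05. SREBP control genes were at 1.13, and at 1.62 with the second quantification, 5.65 with none filtered and 0.033 at 5 TPM or more. LXR, efflux and receptor turnover genes were at 1.29, and at 1.39, 5.82 and 0.20 under those settings in turn, 1.503 as a mean of log2 values and 1.20 with a pseudocount of 1. Transport and modification genes were at 2.77, and at 2.41, 7.29, 1.67, 1.06 and 2.63 under the same 5 settings. The enzymes' median ratio between the libraries was 0.01 and -0.20 with centred TPM. The median coding share was 78.2% and 60.4% with the second quantification. The causes were not tested, beyond the change of the genes compared with. Past 1.5-fold higher in replicate 2 were 0 members with DESeq2 size factors, 1 with centred TPM (Lss) and 2 with the second quantification (Tm7sf2 and Stard4); 4 or 5 were lower under every setting run, Fdps joining with a prior count of 0.5 or no filter and Tm7sf2 with centred TPM. Genes with under about 100 counts, such as Mvk and Pmvk, are limited by depth.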

Other observations

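Of 44 other genes of the pathway and its surroundings, 37 reached 1 TPM in both libraries, 0 were past 1.5-fold higher (2.21% of expressed genes) and 4 past 1.5-fold lower (8.66%) in replicate 2. The 4 were Tspo, Rnf139, Lbr and Rxrb, of which Tspo, Rnf139 and Rxrb were named after their values were seen. Of the other synthesis steps, 5 of 5 genes were below the median of expressed genes in both libraries, and 4 of 5 by the second quantification. Ggps1, which makes geranylgeranyl diphosphate, had 3.27 and 5.09 TPM, but 9.14 and 13.9 TPM (above the median) by the second quantification, and the sterol reductase gene Lbr had 2.95 and 2.58 TPM. Fatty acid genes that SREBP also targets had a median of 3.27 TPM in replicate 1 and 3.05 TPM in replicate 2. Their highest were Scd2, a fatty acid desaturase, at 11.5 and 18.4 TPM and Acly, which supplies acetyl-CoA, at 11.1 and 13.7 TPM. Of the other genes of SREBP processing and turnover, the ubiquitin ligase gene Rnf145 was highest, at 36.2 and 38.8 TPM.

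Some genes of uptake and lipid handling held higher levels. The 6 lipoprotein uptake genes split evenly: 3 were above the median of expressed genes in both libraries and 3 below it in both. Among expressed genes, 47.0% were below it in both, but the uptake genes were not filtered by level and include Vldlr, which is not an expressed gene here. The scavenger receptor gene Msr1 had 219 and 273 TPM and the endocytic receptor gene Lrp1 had 127 and 249 TPM, while Vldlr was at 0 in both libraries. Among other LXR partners and targets, Apoe, the apolipoprotein that accepts exported cholesterol, had 533 and 473 TPM, and the phospholipid transfer gene Pltp had 125 and 131 TPM. Of the other sterol handling genes, Gramd1a, which encodes a sterol carrier between plasma membrane and endoplasmic reticulum, had 210.3 and 255 TPM, and Lipa, the lysosomal acid lipase, had 90.2 and 148 TPM. Of those 9 genes, 8 were above the median of expressed genes in both libraries.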
